A study of Mus musculus with 4 samples.

Results

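The prohibitins and the mitochondrial fusion, fission and cristae genes were followed in pancreatic islets of Tafazzin-knockdown mice. Their 10 genes were taken by symbol from the deposited table: Phb, Phb2, Stoml2, Opa1, Mfn1, Mfn2, Dnm1l, Fis1, Chchd3 and Immt. All 10 had a row among the 24940 genes, and all 10 were among the 13531 genes tested. Islets are the clusters of endocrine cells in the pancreas, most of them insulin-secreting beta cells in the mouse. The control group was islets of non-transgenic male mice (replicates 1 and 2). The other group was islets of male mice with Tafazzin knocked down (replicates 3 and 4). All mice were 3 to 4 months old and ate a low-fat chow. Each library pooled about 300 islets from 2 to 3 mice, so that a value is an average over animals, and n counts pools (n = 2 each). The labels give no construct, promoter or strain for the knockdown. Since the controls carried no transgene, the transgene and the loss of Tafazzin cannot be told apart.

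Tafazzin remodels the acyl chains of cardiolipin, the lipid that marks the inner mitochondrial membrane. Prohibitin 1 and prohibitin 2, encoded by Phb and Phb2, alternate in a ring in that membrane, which is thought to act as a lipid and protein scaffold, and the stomatin-like protein of Stoml2 binds both prohibitins and cardiolipin. Mfn1 and Mfn2 encode the GTPases that fuse outer membranes, and Opa1 encodes the GTPase that fuses inner membranes and keeps cristae narrow. Dnm1l encodes DRP1, the dynamin that divides mitochondria, and Fis1 a tail-anchored outer membrane protein tied to division. Immt (MIC60) and Chchd3 (MIC19) encode core subunits of MICOS, the complex at cristae junctions. OPA1 and DRP1 bind cardiolipin, and their transcripts and those of their partners were compared between the groups. In beta cells, mitochondrial shape and respiration are known to bear on insulin secretion.

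Promoter sequence is shown first, because the partners of a complex differed in it. The sequences are RefSeq's, on GRCm38.p6, the assembly of mm10. Every one of the 10 genes had a window of 300 bases, from 250 bases before to 50 after the start of its listed transcript. The stretch before the start of Phb (chr11:95666707-95666956, plus strand) and the part before the start of Phb2 that holds no annotated exon (chr6:124712179-124712288, plus strand) read 5′ to 3′ as follows. Capitals mark CCGGAAG, the core bound by ETS factors such as GABPA, and CTACAACTC, part of the site bound by ZNF143 and THAP11, on either strand.
Phb: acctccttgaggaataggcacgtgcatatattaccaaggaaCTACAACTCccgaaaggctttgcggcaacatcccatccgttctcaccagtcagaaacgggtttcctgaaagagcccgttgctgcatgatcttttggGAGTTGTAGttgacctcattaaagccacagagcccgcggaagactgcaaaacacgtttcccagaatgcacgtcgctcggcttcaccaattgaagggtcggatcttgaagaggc
Phb2: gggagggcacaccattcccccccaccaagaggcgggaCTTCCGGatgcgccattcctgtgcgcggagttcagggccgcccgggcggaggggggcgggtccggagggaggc
The Phb stretch holds the ZNF143 core in both orientations and no exact CCGGAAG, and the Phb2 stretch holds CCGGAAG on the other strand. The Phb stretch does hold gcggaag, which the search for exact letters did not count.

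The ETS core stood in the windows of 6 of the 10 genes (Phb2, Stoml2, Mfn1, Fis1, Chchd3 and Immt). It stood in 8.86% of all 32851 promoter windows and in 16.4% of those of tested genes. The stretches around it, shown so that the flanking bases can be compared, were these.
Stoml2 (chr4:43031475-43031497, minus strand): ctaatacgCCGGAAGtacgtcgg
Mfn1 (chr3:32529430-32529452, plus strand): ccgaagcgCCGGAAGtagccgcc
Fis1 (chr5:136953249-136953271, plus strand): ggcaccacCCGGAAGttcaggct
Chchd3 (chr6:33060376-33060398, minus strand): cagaggctCCGGAAGccctatta
Immt (chr6:71831193-71831215, plus strand): agcgcgacCCGGAAGgagaacct
The window of Phb2 holds 3 ETS cores in all, 1 as written and 2 on the other strand, and that of Immt holds a further core on the other strand. The ZNF143 core was searched for after the sequences had been seen. It stood in the windows of 3 of the 10 genes, Phb, Mfn2 and Chchd3, against 0.575% of all windows and 1.15% of those of tested genes. It lay 37 bases before the start in Mfn2 and 237 before the start in Chchd3, in these stretches.
Mfn2 (chr4:147904930-147904954, minus strand): gatccaaaCTACAACTCccatgacg
Chchd3 (chr6:33060481-33060505, minus strand): tgtcaagaCTACAACTCccagaatg
The NRF1 core TGCGCA stood in 3 windows (Opa1, Fis1 and Immt) against 7.76% of all windows and 13.0% of those of tested genes. The E-box CACGTG stood in 2 windows (Phb and Chchd3), against 7.15% of all windows and 9.84% of those of tested genes. The YY1 core AAGATGGC and the ERR core AAGGTCA stood in 0 windows of the 10 genes. Their shares were 2.75% and 4.72% of all windows, and 4.18% and 3.16% of those of tested genes. These matches, on both strands, describe letters in a window.

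Levels are given in units of 1 read per 10000000 reads sequenced in the library. Whole reads could be recovered from them, and the library totals lay between 68823160 and 81073502 reads. Most reads fell in 9 rows that each hold over 1% of a library's table, the ribosomal RNA precursor first. The other rows held 5810034 to 6477464 reads, which limits the precision: a gene of the 10 rested on 30 to 539 reads in a library. The targeted gene is listed as Taz (transcript NM_181516, on the plus strand of mm10 chromosome X from 74282718 to 74290151). Its control pools measured 23.1 and 15.4 units and its knockdown pools 13.8 and 12.7. The 2 groups did not overlap and the order was the labelled one. After adjustment over all tested genes Taz did not pass (limma adjusted p = 0.529, and edgeR adjusted p = 0.141 on recovered reads). Its log2 fold change was -0.65 ± 0.25 SE relative to the median of all tested genes. Without adjustment its p was 0.0595 by limma, 0.0031 by limma after median-ratio scaling and 0.0033 by edgeR. The labelled tissue was plain in the endocrine markers, with Ins2, an insulin gene, at 46108 to 58452 units, and 0 of 16 endocrine markers were at 0 in any library.

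The groups differed in markers of other cells of the isolate. Summed stellate cell, fibroblast and pericyte markers had 172 and 175 control units against 577 and 418 under knockdown. Of these 20 markers limma called 13 higher and edgeR 11. Endothelial markers summed to 208 and 175 against 405 and 312 units (14 tested, 6 called higher by limma and 4 by edgeR). Duct markers summed to 894 and 952 against 1804 and 1177 units (13 tested, 7 called higher by limma and 5 by edgeR). Over all 13531 tested genes limma called 337 higher and edgeR 168. An unadjusted p under 0.05 was reached by 1400 of all tested genes with limma and 1363 with edgeR. Acinar markers summed to 3429 and 7090 units in control replicates 1 and 2 and to 6019 and 2846 in knockdown replicates 3 and 4, with 0 of 16 tested called by limma or edgeR (limma 2 and edgeR 5 at an unadjusted p under 0.05). Macrophage markers summed to 69.9 and 61.9 against 85.8 and 72.5 units (2 of 11 tested called higher by limma and 1 by edgeR). Most of that list did not share the direction: 4 lay above the median gene and 7 below, with a list median of -0.03. Among these lists Cftr, Prss1, Amy2a5, Itgam, Aif1 and Mrc1 were at 0 in at least 1 library. In a bulk sample, fewer cells of a type and less RNA per cell cannot be told apart. Acinar markers had 16 of 16 tested below the median gene and a median log2 fold change of -0.41. Endocrine markers had 12 of 16 members below the median gene and a median log2 fold change of -0.20. Of the endocrine markers 0 were called by limma or edgeR (limma 0 and edgeR 2 at an unadjusted p under 0.05). Mafa, a beta cell transcription factor, was called lower after median-ratio scaling, by DESeq2 and without control replicate 2, at log2 fold changes of -0.54, -0.55 and -0.67. Slc2a2, a glucose transporter gene, and Chga, a granule protein gene, were also called lower without control replicate 2. Ppy, a hormone gene, was called higher after quantile normalization and without control replicate 1, the latter with Neurod1. Without knockdown replicate 3, when 0.224% of all genes were called, limma called 5 stellate and 0 endothelial, duct and macrophage markers. The sign of acinar changes turned with the control left out. Without control replicate 1 Cela3b, Pnlip and Try4 had log2 fold changes of -1.07, -0.71 and -0.77. Without control replicate 2 these acinar genes had 0.49, 0.44 and 0.42. The part of this shift in the results that follow was not tested.

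None of the 10 genes passed the test for a difference between knockdown and control islets, which does not show that their levels were equal. By limma 0 of 10 were called after Benjamini-Hochberg adjustment over all genes, against 2.53% of all tested genes. Phb alone had an unadjusted p under 0.05, a level reached by 10.3% of all tested genes. The edgeR test on recovered reads called 0 of 10 (background 1.37%, with 0 at an unadjusted p under 0.05), and limma after median-ratio scaling also called 0 of 10 (background 1.28%, again 0 at an unadjusted p under 0.05). DESeq2 called 0 of 10 as well, with 0 at an unadjusted p under 0.05. Over all 13531 tested genes DESeq2 called only 83 higher and 11 lower, so its 0 of 10 adds little. An unadjusted p under 0.05 was reached by 1363 of 13531 genes with edgeR and 729 of 13531 with DESeq2. After median-ratio scaling limma reached it in 1385 of 13519 genes. The median log2 fold change of the 10 genes was -0.03 relative to the median of all tested genes, with 4 above it and 6 below. That median of all genes was itself 0.17 on the deposited values (-0.01 after scaling), so fold changes on the log2(value + 1) scale are given relative to it, while limma p-values test the unshifted change. The 95% intervals reached from a fold of 0.592 at the lower end (Fis1) to 2.00 at the upper end (Phb). With 2 pools a group and this depth, each gene's change is known no more closely than its interval.

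**Figure D1:**
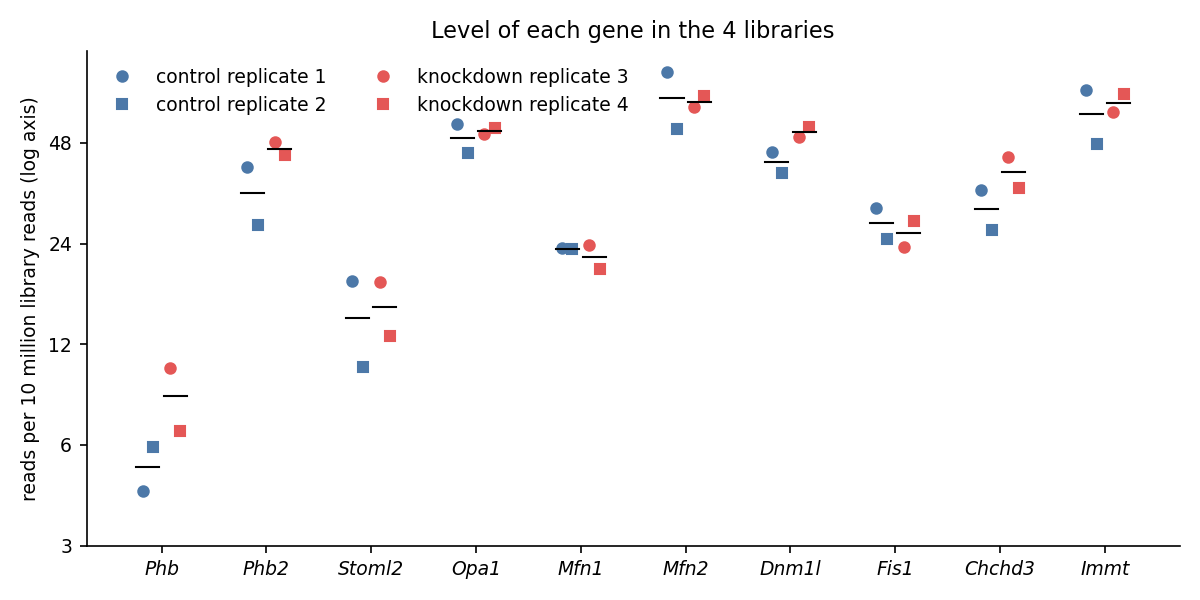
Level of each of the 10 genes in the 4 libraries, in reads per 10000000 library reads on a log axis, with control pools in blue, knockdown pools in red and group means as black bars (n = 2). Both knockdown pools lie above both controls for Phb, Phb2, Dnm1l and Chchd3, and the groups overlap for the other 6 genes.

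The prohibitin genes had the highest fold changes of the 10 over all 4 libraries, an order that was lost when either control or knockdown replicate 3 was left out. Phb (NM_008831; mm10 chromosome 11, 95666957 to 95680773, plus strand, 7 exons) was at 4.36 and 5.92 units (control) and 10.2 and 6.61 (knockdown). These values rest on 30, 48, 78 and 52 reads. Both knockdown pools were above both controls, but knockdown replicate 4 was close to control replicate 2: its counting interval, 4.94 to 8.67 units (exact Poisson, 95%, counting error only), includes that control's value. The means were 5.14 ± 1.10 and 8.39 ± 2.52 units (SD, n = 2 each), and the log2 fold change was 0.43 ± 0.29 SE (limma adjusted p = 0.422, unadjusted p = 0.038). After median-ratio scaling the groups overlapped, at 4.19 and 6.95 against 9.40 and 6.24 units (limma adjusted p = 0.669). Without control replicate 1 the log2 fold change was 0.11 and without control replicate 2 it was 0.75.

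The level of Phb is uncertain, because copies of its coding sequence lie elsewhere in the genome. Of the 10 genes, Phb had the most annotated pseudogenes with at least 90% identity over at least 200 nt, 5 in all. The closest, Gm7666 (mm10 chromosome 15, 6653923 to 6654741), matches 819 nt of the Phb transcript at 99.9% identity and lies inside the span of Fyb, which encodes an adaptor protein of blood cells. The row of Fyb measured 9.15 and 8.88 units in control pools and 14.9 and 10.9 in knockdown pools. Knockdown replicate 3 was the highest library in Fyb as in Phb. How reads with several matches were placed is not given in the sources used here. The pseudogene 1700071K01Rik was read at 0, 0, 0.261 and 0 units. Stoml2, Dnm1l and Immt had 1 such pseudogene each, and Phb2 and the other genes had 0. On the same strand as Phb, a long noncoding RNA, Gm26830, is annotated over 2768 nt of the Phb span.

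Phb2 (NM_007531; mm10 chromosome 6, 124712289 to 124716945, plus strand, 10 exons) had 40.7 and 27.3 control units against 48.3 and 44.0 under knockdown. Both knockdown pools lay above both controls, and the controls differed from each other more than the knockdown pools did. The means were 34.0 ± 9.49 and 46.1 ± 3.00 units (SD, n = 2 each), with a log2 fold change of 0.29 ± 0.25 SE (limma adjusted p = 0.539, and edgeR adjusted p = 0.540). After median-ratio scaling the values were 39.1 and 32.0 against 44.6 and 41.5 units, still without overlap (limma adjusted p = 0.579). Without control replicate 1 Phb2 was the one gene of the 10 that was called (log2 fold change 0.44, limma adjusted p = 0.00434). In that fit 9.56% of all tested genes were called, so that 1 of 10 is near the background, and without control replicate 2 the log2 fold change was 0.14. A small nucleolar RNA, Gm23547, is annotated inside the Phb2 span on the same strand, and its reads are not separable from those of the gene around it.

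Stoml2 (NM_023231; mm10 chromosome 4, 43027690 to 43031384, minus strand, 10 exons) was at 18.6 and 10.2 units (control) and 18.4 and 12.7 (knockdown). The spread within each group was larger than the difference between them, with means of 14.4 ± 5.91 and 15.6 ± 4.01 units (SD, n = 2 each) and a log2 fold change of -0.03 ± 0.26 SE (limma adjusted p = 0.942). Stoml2 thus did not share the separation of the groups seen in Phb and Phb2.

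The 3 fusion genes had log2 fold changes under that of the median gene, and in each the groups overlapped on the deposited values. Opa1 (NM_133752; mm10 chromosome 16, 29579334 to 29654602, plus strand, 29 exons) measured 54.5 and 44.7 units in control pools and 51.1 and 53.3 in knockdown pools. Its knockdown pools lay between the controls, and the log2 fold change was -0.09 ± 0.24 SE (limma adjusted p = 0.970), with a 95% interval of 0.677 to 1.31 in fold. Mfn1 (NM_024200; mm10 chromosome 3, 32529482 to 32579225, plus strand, 18 exons) stood at 23.2 and 23.1 against 23.7 and 20.1 units. The controls were nearly equal and the knockdown pools lay on either side of them (log2 fold change -0.25 ± 0.25 SE, limma adjusted p = 0.971). Its span overlaps, over 639 nt, Gnb4, a G protein subunit gene on the other strand, which stood at 5.23 and 4.56 against 9.65 and 4.07 units. Mfn2 (NM_001285921; mm10 chromosome 4, 147873586 to 147904909, minus strand, 20 exons) had 78.3 and 52.7 control units against 61.3 and 66.1 under knockdown. Both knockdown pools lay between the controls (log2 fold change -0.18 ± 0.24 SE, limma adjusted p = 0.996).

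Fission genes had fold changes of opposite sign. Dnm1l (NM_152816; mm10 chromosome 16, 16312228 to 16359031, minus strand, 19 exons) was at 45.2 and 39.1 units (control) and 49.8 and 53.4 (knockdown), without overlap. Its means were 42.1 ± 4.30 and 51.6 ± 2.54 units (SD, n = 2 each), and the log2 fold change was 0.12 ± 0.24 SE (limma adjusted p = 0.812). After median-ratio scaling its highest control, at 45.9 units, and its lowest knockdown pool, at 46.0, were nearly equal. Fis1 (NM_001163243; mm10 chromosome 5, 136953275 to 136966234, plus strand, 5 exons) stood at 30.7 and 24.8 against 23.5 and 28.0 units, with the groups interleaved. It had the lowest fold change of the 10 (-0.27 ± 0.25 SE, limma adjusted p = 0.964), and after scaling it stood at 29.4 and 29.1 against 21.7 and 26.4 units, without overlap (limma adjusted p = 0.624).

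The cristae genes also differed from each other. Chchd3 (NM_001355667; mm10 chromosome 6, 32792207 to 33060260, minus strand) measured 34.6 and 26.4 units in control pools and 43.6 and 35.1 in knockdown pools. The groups did not overlap, but control replicate 1 and knockdown replicate 4 were nearly equal (log2 fold change 0.20 ± 0.25 SE, limma adjusted p = 0.714). After scaling control replicate 1 and knockdown replicate 4 changed places, at 33.2 and 33.1 units. On the strand of Chchd3, Gm42895 is annotated over 2996 nt of the Chchd3 span, and on the other strand Gm14540 over 4755 nt. Other genes are annotated on the opposite strand within the spans of Phb2, Stoml2, Mfn2, Dnm1l and Immt. The longest such overlap is that of Gm49521, over 9809 nt of Dnm1l. What these overlaps add to the levels was not tested. Immt (NM_001362137; mm10 chromosome 6, 71831320 to 71875266, plus strand) stood at 69.2 and 47.6 against 59.5 and 67.1 units. Its knockdown pools lay between the controls (log2 fold change -0.03 ± 0.24 SE, limma adjusted p = 0.938).

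**Figure D2:**
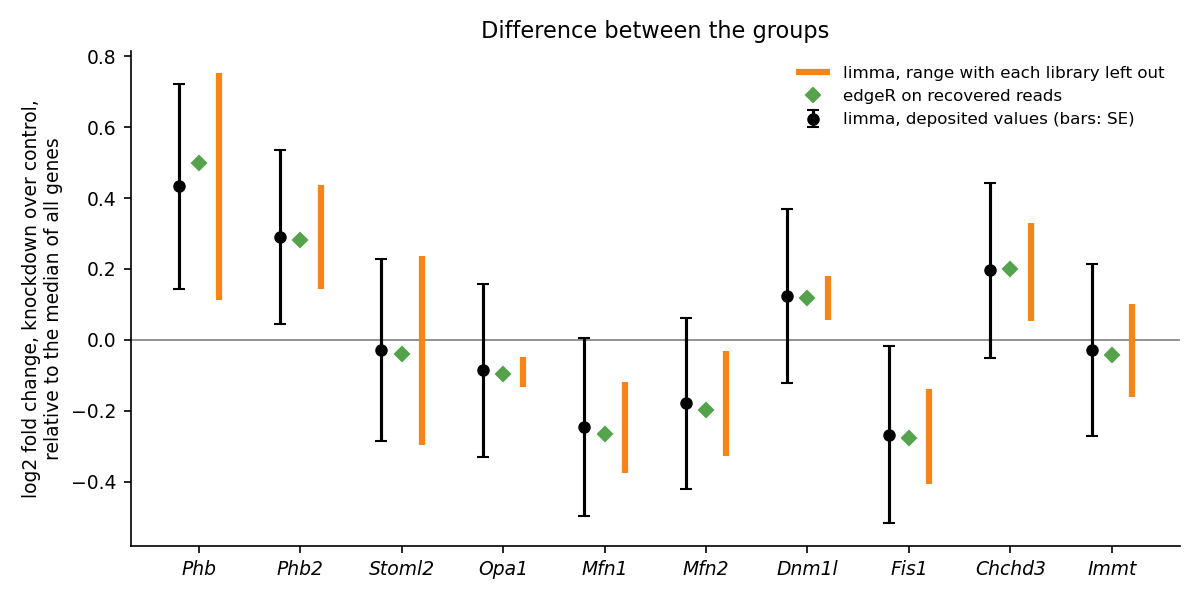
Log2 fold change of knockdown over control for each gene, relative to the median of all tested genes: limma on the deposited values with its SE (black), edgeR on recovered reads (green) and the range when each library is left out in turn (orange). The black values run from -0.27 for Fis1 to 0.43 for Phb, and the orange range crosses 0 for Stoml2 and Immt.

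The number of genes without overlap between groups has to be read against all genes. On the deposited values 4 of the 10 genes had both knockdown pools above both controls, as did 34.9% of all tested genes, and 0 of 10 had both below, as did 4.49%. After median-ratio scaling the groups did not overlap, in either direction, in 5 of 10 genes and in 40.4% of all tested genes. Among the 5, Phb2 and Dnm1l had both knockdown pools above and Opa1, Mfn1 and Fis1 had both below. The size factors behind this scaling were 1.04 and 0.851 for control replicates 1 and 2 and 1.08 and 1.06 for knockdown replicates 3 and 4, so that control replicate 2 was the library that moved most. Of the 10 genes 9 were lower in control replicate 2 than in control replicate 1, with Phb the exception. The median ratio of control replicate 1 to control replicate 2 was 1.27 over the 10 genes and 1.22 over all tested genes. In 7 of the 10 genes the controls differed from each other more than the unshifted group means did on the log2 scale.

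In 3 genes, Opa1, Mfn2 and Immt, the libraries stood in the order of the summed endocrine markers. Those markers summed to 115041 and 92534 units in control replicates 1 and 2 and to 99035 and 106221 in knockdown replicates 3 and 4. The same order held for 12.2% of all tested genes. Whether the share of endocrine cells moves with these genes was not tested.

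Ratios between genes of one library do not depend on how libraries are scaled. The sum of the fusion genes over the sum of the fission genes was 1.04 and 0.91 on the log2 scale in control replicates 1 and 2, and 0.89 and 0.78 in knockdown replicates 3 and 4. Both knockdown pools were below both controls, by 0.14 between the means, which are 0.98 ± 0.09 and 0.84 ± 0.08 (SD, n = 2 each). Control replicate 2 and knockdown replicate 3 differed by less than the spread within either group. No two-sided exact permutation test of 2 pools against 2 can give a p below 0.33, so the ratio was not given a p. The same ratio over the 6 other fusion and 14 other fission genes, added after the data were seen, had the other sign. It was -1.51 and -1.47 in control pools and -1.32 and -1.35 in knockdown pools, with both knockdown pools above both controls by 0.16 between the means. The wider lists are of genes tied to each process, whether they promote or limit it, so their ratio does not measure net fusion. The fusion sum was 156 and 120 against 136 and 140 units, and the fission sum 75.8 and 63.9 against 73.3 and 81.4 units, both overlapping. Between the partners of one complex or family the groups overlapped. The log2 ratio of Phb to Phb2 was -3.22 and -2.20 against -2.25 and -2.73. That of Mfn1 to Mfn2 was -1.75 and -1.19 against -1.37 and -1.72, and that of Chchd3 to Immt differed by 0.23 between the means with a pooled SD of 0.25. With each library left out in turn, the difference between groups changed sign for all 3 of these ratios: it ran from -0.29 to 0.73 for Phb to Phb2, from -0.35 to 0.21 for Mfn1 to Mfn2 and from -0.01 to 0.48 for Chchd3 to Immt.

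**Figure D3:**
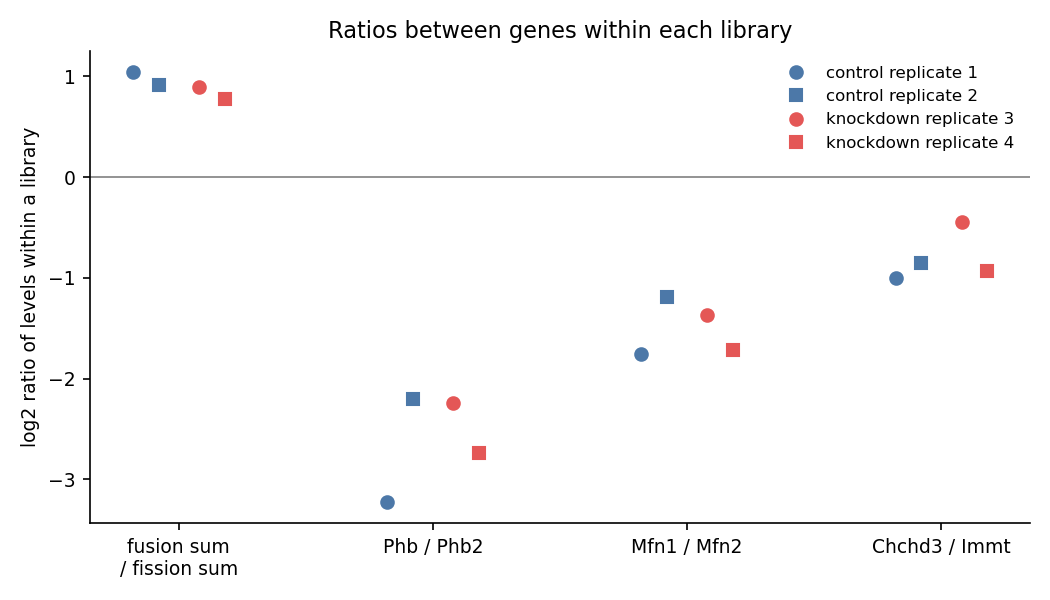
Log2 ratio of the levels of genes or summed genes within each library, with control pools in blue and knockdown pools in red. The fusion to fission ratio is 1.04 and 0.91 (control) and 0.89 and 0.78 (knockdown), and the groups overlap for the 3 other ratios.

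The ratios above are not scaled by length and were compared only between libraries. Otherwise, levels of different genes were compared per length. The labels describe random priming of ribosome-depleted total RNA, and 99.2% of the lengths in the deposited table equal the genomic span, but whether intron reads were counted is not given in the sources used here. Per kb of gene body the mean over the 4 libraries was 8.60 units for Phb2, the highest, then 4.06 for Stoml2 and 2.06 for both Mfn2 and Fis1, and it was 0.130 for Chchd3, the lowest. Exons make up 0.846% of the span of Chchd3, the longest gene of the 10 at 268053 nt, and 44.0% of that of Stoml2, the shortest at 3694 nt. Per kb of the merged exons of coding transcripts the order was Phb2 (29.8 units), Fis1 (24.3), Immt (21.1), Chchd3 (14.4), Mfn2 (12.5), Dnm1l (10.3), Opa1 (7.96), Stoml2 (7.67), Mfn1 (4.05) and Phb (3.61). Neighbours in that order had overlapping ranges over the 4 libraries, with 2 exceptions: Dnm1l, lowest at 8.62, stayed above Opa1, highest at 8.52, and Stoml2, lowest at 5.24, stayed above Mfn1, highest at 4.27. Phb2 was higher than Phb in every library on both scales: per kb of exons Phb ranged from 2.32 to 5.43 units and Phb2 from 20.3 to 35.9. The levels of the 4 genes with pseudogenes are uncertain on either scale.

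**Figure D4:**
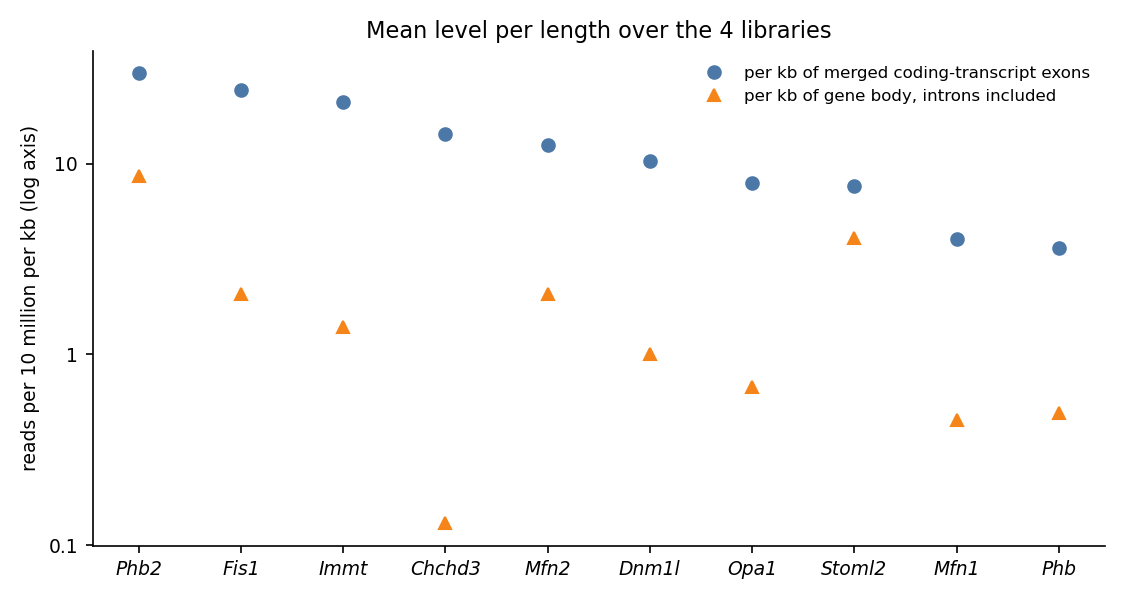
Mean level of each gene over the 4 libraries in reads per 10000000 per kb on a log axis, per kb of merged exons (blue circles) and per kb of gene body with introns (orange triangles). Phb2 is highest on both scales, at 29.8 and 8.60, while Chchd3 is at 14.4 per kb of exons and, at 0.130, lowest per kb of gene body.

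The other genes of these pathways, in lists named with earlier results of the data known, gave no call either on the full set of libraries. Without control replicate 1, which left 9.56% of all genes called by limma, Dnajc11, Immp2l, Lonp1, Flot1, Flot2 and Uqcrc2 were called in these lists. Without control replicate 2, which left 3.07% of all genes called, Flot1 was called. On the full set, 1400 of the 13531 tested genes had an unadjusted p under 0.05 by limma and 1363 by edgeR. The list counts at that level below are to be read against these. Genes are named below by the size of the limma statistic, which tests the unshifted change and so favours genes above the median. For balance the lowest fold change of a list, chosen after the values were seen, is given where the rule names no gene below the median. Of the other MICOS and cristae-bridging genes 0 of 11 were called by limma or edgeR (limma 2 and edgeR 1 at an unadjusted p under 0.05), with a median log2 fold change of 0.06. Dnajc11, a J-protein that binds MICOS, had 19.2 and 15.05 control units against 25.6 and 25.2 under knockdown, without overlap (log2 fold change 0.39 ± 0.25 SE, limma adjusted p = 0.361). Atad3a, an inner membrane ATPase, and Mtx3, a metaxin, had log2 fold changes of 0.37 and 0.32. Of the 11 genes 7 lay above the median gene and 4 below it, lowest Apoo, a MICOS subunit, at -0.29.

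Of the other fission genes 0 of 13 tested were called by limma or edgeR (limma 0 and edgeR 3 at an unadjusted p under 0.05), and 11 had fold changes under the median gene (list median -0.11). Mtfr1, a fission regulator, was at 33.1 and 27.9 units (control) and 25.04 and 25.9 (knockdown), without overlap (log2 fold change -0.41 ± 0.25 SE, limma adjusted p = 0.859; edgeR adjusted p = 0.272). Its relative Mtfr1l had a log2 fold change of -0.38, and Dnm2, a dynamin of many membranes, one of 0.06. The fold changes of Mtfr1 and Mtfr1l had the sign of that of Fis1, and that of Dnm1l had the other sign.

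The other fusion genes were those tied to fusion, whether they promote or limit it. Of these 0 of 5 tested were called by limma and by edgeR (0 by either at an unadjusted p under 0.05), with a median of 0.07. The deubiquitinase gene Usp30 stood at 16.4 and 17.1 against 21.4 and 23.9 units, and the mitoguardin genes Miga2 and Miga1 had log2 fold changes of 0.24 and 0.07. The lowest was Chchd2 at -0.14. Of these 5 genes 4 lay above the median gene, while Opa1, Mfn1 and Mfn2 lay under it.

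Of the genes of OPA1-processing and other mitochondrial proteases 0 of 11 were called by limma or edgeR (limma 1 and edgeR 2 at an unadjusted p under 0.05), with a median of 0.04. Immp2l, an inner membrane peptidase subunit, measured 13.7 and 9.62 units in control pools and 20.6 and 16.3 in knockdown pools (log2 fold change 0.47 ± 0.26 SE, limma adjusted p = 0.241). Its row overlaps Lrrn3. Lonp1 and Htra2, a matrix and an intermembrane space protease, had log2 fold changes of 0.13 and 0.14. The lowest were Immp1l, the partner subunit of Immp2l, at -0.37 and Afg3l2, an inner membrane protease subunit, at -0.30.

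The prohibitins share a domain named SPFH with flotillins, stomatins and erlins, and this list with 2 prohibitin partners had 0 of 8 tested genes called by limma and by edgeR (2 at an unadjusted p under 0.05 by each), with a median of 0.00. Flot1 and Flot2, the flotillins of the plasma membrane, stood at 26.4 and 25.7 against 46.0 and 39.8 units and at 36.0 and 32.8 against 51.4 and 49.98 units. Neither passed (log2 fold changes 0.53 and 0.38, limma adjusted p = 0.124 and 0.347), although the knockdown pools were above the controls in both. C1qbp, a matrix protein, had a log2 fold change of 0.16, Stoml1 was lowest at -0.44, and Stoml3 was at 0 in every library.

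The transport genes Trak2, Rhot1 and Trak1, which link mitochondria to microtubule motors, had log2 fold changes of 0.05, 0.03 and 0.02, Rhot2 was lowest at -0.05, and 0 of 4 genes of that list were called by limma and by edgeR (0 by either at an unadjusted p under 0.05). The list for general mitochondrial content held transcripts of 20 genes of import, porins, chaperones and respiration, which do not measure content itself. Its median was 0.03 with 0 called by limma or edgeR (limma 1 and edgeR 0 at an unadjusted p under 0.05). It summed to 1574 and 1322 units in control pools and to 1601 and 1688 in knockdown pools. Timm44, Cs and Uqcrc2 had log2 fold changes of 0.45, 0.23 and 0.14, the largest statistics of that list, and Sdha was lowest at -0.22. The 10 genes had a median of -0.03, and all tested genes 0 by construction.

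**Figure D5:**
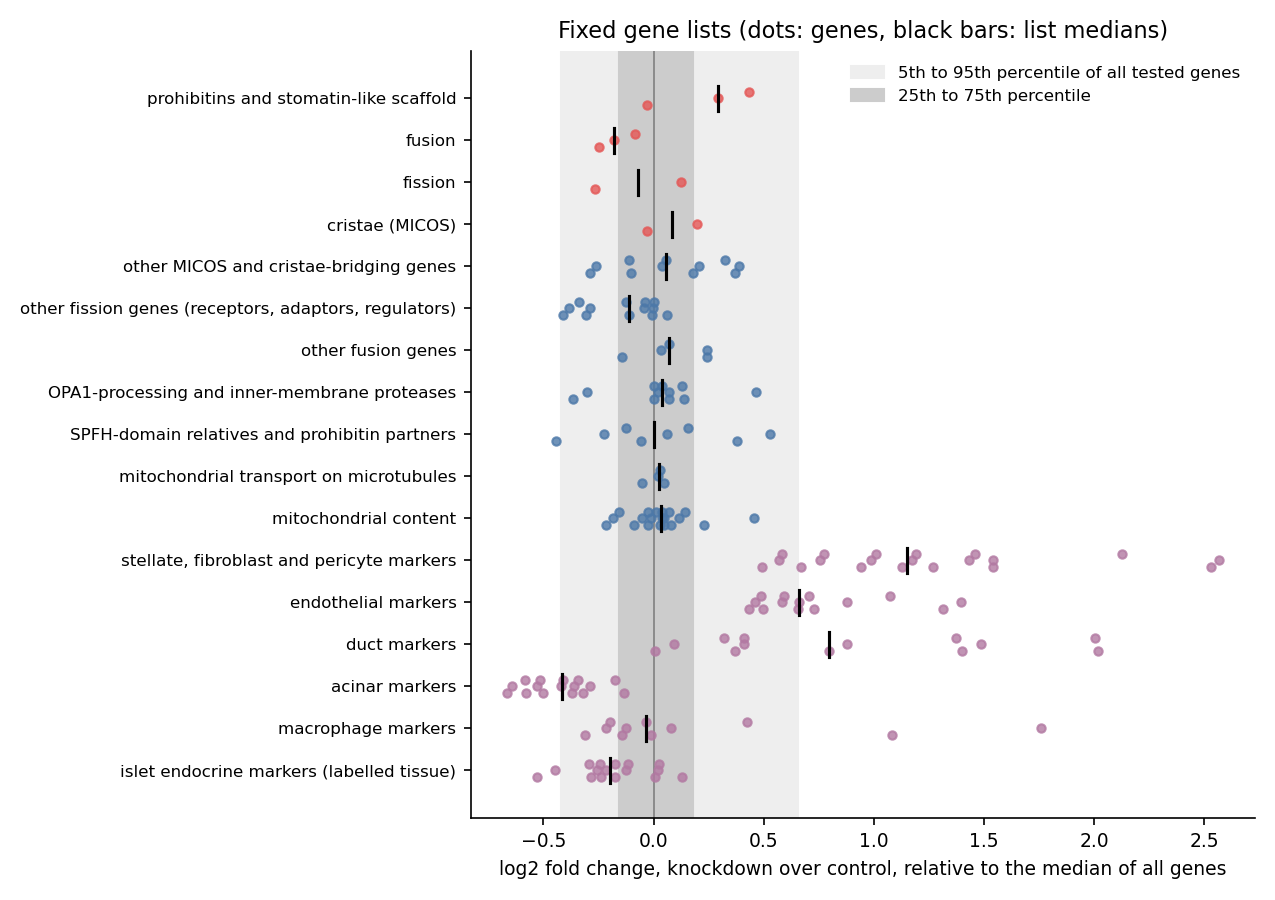
Log2 fold change of each tested gene in the lists, relative to the median of all genes, with list medians as black bars and the middle 50% and 90% of all tested genes in grey. All 10 genes of the prohibitin, fusion, fission and cristae lists (red) lie within the 5th to 95th percentile of all genes, from -0.42 to 0.65.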

How the data were processed

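Total RNA of 4 islet pools was sequenced after ribosomal RNA removal and directional, random-primed library construction, per the labels. Per the submitters' processing notes, which give no roles, the tools were STAR 2.5.1b, HOMER 4.9 and edgeR, and the build mm10. The authors deposited a signal per gene and library in reads per 10000000 library reads, not scaled by length despite the table's FPKM name. All values (100%) were multiples of a single read's worth, within 0.01 reads beyond the printed rounding. Strand use and the counted region are not given in the sources used here.

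The whole table was fitted with limma 3.58.1 (R 4.3.3) after log2(value + 1), using the trend option, two-sided, Benjamini-Hochberg adjustment at 0.05. Genes under a mean of 1 unit or under 200 nt were left out. The prior degrees of freedom were infinite, so each gene's spread was taken from the trend. The plan had assumed FPKM. Count tests, edgeR 4.0.16 (quasi-likelihood, TMM) and DESeq2 1.42.0, ran on recovered reads as alternatives. The scripts were tested on simulated data. P-values are set against a spread between pools, which in the main limma fit is that of the trend and not each gene's own.

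The members, lists and tests were chosen with earlier results of these data known. Named genes are the 10 members, Taz, the called genes of each mitochondrial list or else up to 3 with the largest limma statistic, and for each cell type list its most abundant called genes or most abundant gene; of the last, only Ins2 is given by value here. Groups share no replicate number, so no block was used. Exons, overlaps and pseudogenes come from GENCODE M21 (GRCm38), with blastn for copies. The alternatives were scaling, pseudocounts of 0.1 and 5, filters, no trend, the count tests and leaving out each library.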

Additional observations from a re-analysis of the deposited data

How the results depend on the processing

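No paired analysis was possible because the groups share no replicate number. The count of the 10 genes called was 0 under 13 of 14 alternatives and 1 (Phb2) without control replicate 1, so that it ranged from 0 to 1 with each library left out. Genes called higher numbered 337 and genes called lower 6. After median-ratio scaling these were 151 and 22, with edgeR 168 and 18, with DESeq2 83 and 11, without the trend 528 and 16, and with no filter on low values 0 and 0 (1484 at an unadjusted limma p under 0.05). Genes called higher were 86 after quantile normalization and 189 after rescaling to rows under 1% of the table. With each library left out they ranged from 26 to 1264 higher (without knockdown replicate 3 and control replicate 1) and from 3 to 59 lower (without knockdown replicate 4 and control replicate 2). The log2 fold change kept its sign under all 14 alternatives in 8 of the 10 genes and in Taz. It turned for Immt after quantile normalization (0.013), with a pseudocount of 5 (0.00047) and with a library left out (-0.16 to 0.10), and for Stoml2 with a library left out (-0.30 to 0.24). The cause was not tested. The median over the 10 genes ran from -0.11 to 0.10. The log2 fusion to fission difference of -0.14 ranged from -0.21 to -0.08 with each library left out, was -0.12 without Mfn1, and was 0.16 over the other fusion and fission genes, an alternative added after seeing the data. Leaving out a library leaves 1 pool in a group, which is then assumed to vary like the other. Phb rests on 30 to 78 reads a library.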
